A study of Mus musculus with 3 samples.

Results

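The cytosolic ribosomal protein genes of the mouse were described in epithelial cells and macrophages of the embryonic lung. They were taken as every gene of the Epcam+ Icam+ gene table whose symbol starts with Rpl or Rps, without the Rps6k kinases and without symbols that contain -ps, if the same Ensembl identifier also stood in the Epcam+ table. This gave 86 of the 30406 gene identifiers that both tables list. 5 shared symbols with -ps were left out, and 4 more stood in the Epcam+ table only. By symbol the 86 hold 52 genes of the large subunit, the assembly factor gene Rpl7l1 among them, and 33 of the small subunit. The last is Rps19bp1, which meets the symbol rule but codes for a regulator of the deacetylase SIRT1 and not for a ribosomal protein.

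Lungs of C57/B6 embryos at stage E14.5, collected from 2 females, were pooled, dissociated enzymatically and stained with Epcam-APC and Icam1-PE antibodies. Epcam marks epithelium and Icam1 is an adhesion molecule that in the mature lung is abundant on alveolar type 1 cells. Sorted cells were profiled by droplet single-cell sequencing of transcript ends, as 2 libraries of Epcam+ Icam+ cells and 1 library of Epcam+ cells, and the labels name no genetic change or treatment. The labels do not say whether the 2 Epcam+ Icam+ libraries came from separate pools of embryos, so the spread between them may be technical. Comparisons of the sorts rest on that spread and on the assumption that the single Epcam+ library varies alike, whereas comparisons of classes rest on the spread of the class differences over all 3 libraries. The sorts also differ in the software that the headers name (version 5.0.1 against 3.0.2), in the gene table (32285 against 31053 genes) and in depth. These differences cannot be told apart from the gate.

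A ribosome joins a small subunit, which reads the messenger RNA, to a large subunit, which forms the peptide bonds, and each subunit holds ribosomal RNA and many proteins, most of them present once per ribosome. The messenger RNAs of ribosomal proteins are among the most abundant in growing cells and start with a run of pyrimidines, the terminal oligopyrimidine tract, through which mTOR signalling controls their translation. A few ribosomal proteins have a second, paralogous gene whose protein can take the same place, and these paralogues are known for uneven use between tissues.

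The coding sequences of 2 pairs in which the choice of gene was measured are shown first, to give their similarity. Reads came from transcript ends, so coding similarity alone does not set how well a read can be assigned. Sequences are from GENCODE vM21 on mm10, 5′ to 3′ and without the stop codon, and capitals in a paralogue mark bases that differ, position by position, from its canonical partner. Rps27 (ENSMUSG00000090733, chr3:90212522-90213651, minus strand), a small subunit protein with a zinc finger, has a retrogene, Rps27rt (ENSMUSG00000050621, chr9:114982366-114982739, minus strand). The coding sequence of Rps27rt was identical to that of Rps27 at all 252 of its 252 bases, so 1 sequence stands for both. Rps27l (ENSMUSG00000036781, chr9:66946086-66949516, plus strand) differed from Rps27 at 60 of 252 bases.
Rps27: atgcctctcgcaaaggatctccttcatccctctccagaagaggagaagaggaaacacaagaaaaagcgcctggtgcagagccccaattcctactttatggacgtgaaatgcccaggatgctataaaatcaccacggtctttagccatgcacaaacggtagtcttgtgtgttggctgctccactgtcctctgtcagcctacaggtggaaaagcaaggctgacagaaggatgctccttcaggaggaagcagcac
Rps27l: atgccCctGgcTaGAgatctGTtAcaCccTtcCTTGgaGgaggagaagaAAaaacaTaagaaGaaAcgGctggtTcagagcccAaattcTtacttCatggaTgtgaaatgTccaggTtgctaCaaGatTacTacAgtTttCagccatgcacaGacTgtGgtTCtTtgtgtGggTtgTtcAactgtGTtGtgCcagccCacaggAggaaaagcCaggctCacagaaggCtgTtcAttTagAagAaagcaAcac
Rpl36al (ENSMUSG00000049751, chr12:69182731-69184083, minus strand), an autosomal copy, and the X-linked Rpl36a (ENSMUSG00000079435, chrX:134585654-134588062, plus strand) both code for a large subunit protein near the exit site for transfer RNA.
Rpl39l (ENSMUSG00000039209, chr16:10170226-10174911, plus strand), known from male germ cells, differed at 23 of 153 bases from Rpl39, a short protein of the peptide exit tunnel (chrX:37082520-37085402, minus strand).
Rpl39: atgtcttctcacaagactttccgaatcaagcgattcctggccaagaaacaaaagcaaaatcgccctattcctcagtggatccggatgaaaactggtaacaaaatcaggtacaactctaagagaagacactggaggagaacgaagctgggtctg
Rpl39l: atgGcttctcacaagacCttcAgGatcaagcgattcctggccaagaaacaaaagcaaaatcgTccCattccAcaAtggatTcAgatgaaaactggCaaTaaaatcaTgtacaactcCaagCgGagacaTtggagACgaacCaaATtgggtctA
Identity over aligned columns was 84.7% for Rpl10l and Rpl10, 74.2% for Rpl3l and Rpl3, 69.3% for Rpl22l1 and Rpl22, and 57.1% for Rpl7l1 and Rpl7.

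The transcript starts of 66 of the 86 genes were matched in RefSeq (GRCm38.p6). The windows below give 15 bases before the annotated start in lower case and 15 bases from it in capitals, for a pair with identical coding sequence and for 2 other members that stand apart in the comparisons of the sorts.
Rps27, chr3:90213634-90213663, minus strand: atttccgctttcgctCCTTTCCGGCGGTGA
Rps27rt, chr9:114982725-114982754, minus strand: agaacttatcccttgCTTTCCGGCGGTGAC
Rplp2, chr7:141447636-141447665, plus strand: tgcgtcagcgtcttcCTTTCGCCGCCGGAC
Rpl13a, chr7:45128731-45128760, minus strand: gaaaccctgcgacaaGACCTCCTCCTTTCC
The letters CTTTCC stood in the 30-base window of 11 of the 66 genes on the transcribed strand (16.7%) and of 451 of 27025 genes in the whole table (1.67%). On either strand (reverse complement GGAAAG) the counts were 11 of 66 and 849 of 27025 (3.14%). For the other letter runs searched on the transcribed strand, CTCTTT stood in 8 of 66 (12.1%, against 1.33%), CTTTTC in 5 (7.58%, against 1.25%) and CTTCC in 13 (19.7%, against 7.83%). One window can hold more than one of these runs, which overlap in part.

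The libraries held 4739, 4531 and 3697 barcodes (Epcam+ Icam+ 1, Epcam+ Icam+ 2 and Epcam+), of which 3271, 3052 and 2902 were kept as cells, with median depths of 19589, 19528.5 and 26668 UMIs. A UMI (unique molecular identifier) stands for 1 captured transcript whatever its length, so levels of different genes were compared as CPM, the UMIs of a gene scaled to 1000000 UMIs of its class and library. The Epcam+ Icam+ libraries shared 3 barcodes with each other, and 1 of them shared 1 with the Epcam+ library. The epithelium numbered 2115, 1886 and 2351 cells, without a cluster led by B-lineage genes (103 cells in the Epcam+ library) that was left out, and within it clusters were called by markers as distal tip-like (249, 237 and 687 cells), airway-like (195, 197 and 394) and alveolar type 1-like (326, 284 and 48). Macrophage-like cells numbered 391, 376 and 42, after 166, 138 and 98 barcodes with RNA of both macrophages and epithelium were left out. Ribosomal protein genes were not used for clustering.

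The class names held to different degrees. The 9 macrophage markers summed to 14530, 14470 and 15120 CPM in macrophage-like cells and to 12.4, 10.4 and 25.6 CPM in epithelium, with none at 0 in macrophage-like cells. Sftpc, an alveolar and tip gene, stood at 173, 151 and 217 CPM in macrophage-like cells, against 5877, 6323 and 2446 CPM in epithelium. The 8 airway markers summed to 2184, 3100 and 604 CPM in airway-like cells, and in those of the Epcam+ library alveolar type 2 markers summed to 1981 CPM. Tip markers summed to 276, 293 and 762 CPM in airway-like cells. In the Epcam+ library these cells thus held more tip than airway marker UMIs. Tip-like clusters were called from the tip and alveolar type 2 markers read together, since both were raised in the same clusters. In tip-like cells the 8 tip markers summed to 662, 714 and 1408 CPM and the 8 alveolar type 2 markers to 14820, 15000 and 3101 CPM, so the class was rich in surfactant genes, above all in the Epcam+ Icam+ libraries. Cluster 9, which held most of their tip-like cells, had Sftpa1, Sftpb and Lamp3 and no tip marker among its 10 leading genes. The tip-like cells fell into different clusters in the sorts, with 454 and 232 of 687 cells of the Epcam+ library in clusters 0 and 2, and 109 and 95 cells of the Epcam+ Icam+ libraries in cluster 0 and 133 and 137 in cluster 9. Cluster 0 was led by the globins Hba-a1 and Hbb-bs beside Sftpb and Sftpa1. The airway-like cells fell into cluster 4 (147, 155 and 121 cells) and cluster 7 (48, 42 and 273). The alveolar type 1 markers summed to 1301, 1246 and 356 CPM in alveolar type 1-like cells and to 500, 433 and 179 CPM in tip-like cells. Alveolar type 2 markers summed to 3646, 4030 and 2840 CPM and tip markers to 288, 282 and 664 CPM in the same alveolar type 1-like cells, so in each library these cells held more type 2 than type 1 marker UMIs.

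The 86 genes supplied between 24.8% and 34.1% of all UMIs in the 5 classes and 3 libraries. In epithelium their summed share of UMIs was 29.1%, 29.5% and 30.9% (Epcam+ Icam+ 1, Epcam+ Icam+ 2 and Epcam+, the order kept below). Macrophage-like cells were lower in each library, at 24.8%, 25.4% and 26.5%. Alveolar type 1-like cells were the highest of the 5 classes in each library, at 31.6%, 32.3% and 34.1%. Tip-like cells (28.4%, 28.6% and 30.4%) and airway-like cells (28.4%, 28.6% and 31.7%) differed by less than the gap between the sorts. In every class the Epcam+ library, which was also the deepest, had the highest share. With 3 libraries per class an exact permutation test of these shares could not pass 0.05, and none is given. Exact binomial 95% intervals cover counting error only, and the widest of these 15, for the 48 alveolar type 1-like cells of the Epcam+ library, ran from 34.0% to 34.2%.

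Within epithelium the share also varied from cell to cell. Its interquartile range was 26.7% to 31.9%, 27.4% to 32.4% and 29.3% to 32.4%, narrowest in the Epcam+ library. An epithelial cluster led by the mitotic genes Ube2c, Cenpf and Nusap1 had the lowest share of the epithelial clusters with at least 30 cells in each library (26.3%, 27.0% and 29.7%), and in it 94 cell cycle genes summed to 16012, 15998 and 13418 CPM. The alveolar type 1-like cells, at the other end, had cell cycle sums of 2923, 2704 and 4938 CPM. Tip-like cells had 11854, 11757 and 10138 CPM and airway-like cells 7503, 7387 and 9491 CPM. Macrophage-like cells combined a low cell cycle sum (4728, 4262 and 6222 CPM) with the lowest ribosomal protein share of the 5 classes. The part of cell cycle genes in these shares was not tested.

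**Figure D1:**
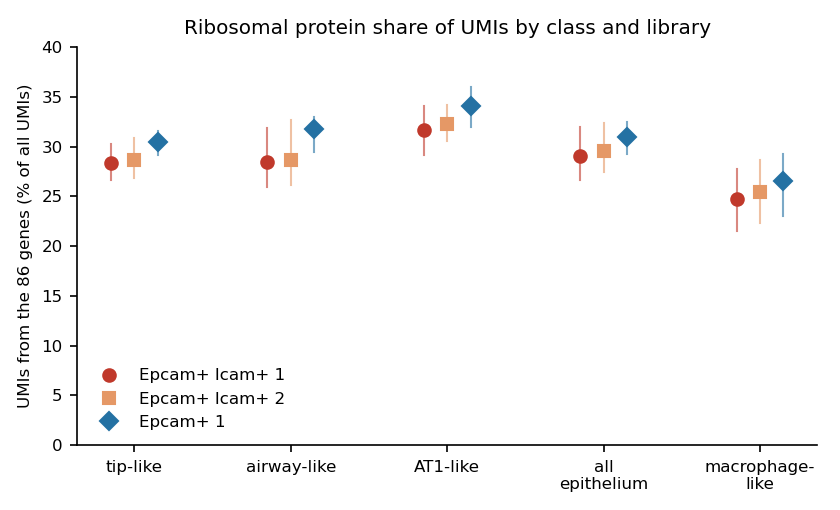
Share of all UMIs (percent, vertical axis) that came from the 86 ribosomal protein genes, for each class of cells (horizontal axis) and each of the 3 libraries (points), with lines for the interquartile range over cells. Alveolar type 1-like cells sit highest, at 31.6% to 34.1%, and macrophage-like cells lowest, at 24.8% to 26.5%.

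Most of the genes were expressed at similar, high levels. By their mean over the 3 libraries in epithelium, 78 of the 86 stood at 1000 CPM or more, 4 between 100 and 1000 CPM, 1 between 20 and 100 CPM and 3 under 1 CPM, with a median of 3674 CPM. 72 of them were among the 100 most abundant genes of the epithelium. The 6 highest together gave 13.3% of the UMIs of all 86. Between the Epcam+ Icam+ libraries the 83 genes at 20 CPM or more differed in epithelium by a median of 0.025 in log2 size, and the largest difference was 0.10 (Rpl36).

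The most abundant gene was Rpl41, which codes for a very short, basic protein that bridges the subunits, at 6461, 6873 and 11140 CPM. Rpl13, a large subunit protein, stood at 7221, 7192 and 6435 CPM. Rps27a, made as a fusion with ubiquitin, stood at 6332, 6336 and 5581 CPM. Rps29, a zinc finger protein of the small subunit, stood at 5159, 5361 and 7195 CPM, and Rpl32 at 5823, 5882 and 5913 CPM. The order of these genes was not the same in the sorts, since Rpl41 and Rps29 were higher and Rpl13 and Rps27a lower in the Epcam+ library.

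The stalk is the lateral arm of the large subunit that recruits elongation factors. Rplp0, its base, stood at 4652, 4581 and 5511 CPM in epithelium. Of the 2 acidic proteins bound to it, Rplp1 stood at 4351, 4479 and 4318 CPM and Rplp2 at 2992, 3156 and 4888 CPM. Rplp2 thus stood below Rplp1 in the Epcam+ Icam+ libraries and above it in the Epcam+ library. Small subunit genes gave 45.5%, 45.4% and 44.0% of the UMIs of the 86 genes in epithelium, and 45.8%, 45.8% and 44.7% in macrophage-like cells. The split between subunits thus moved by less between these cell types than between the sorts.

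Fau and Rack1 code for parts of the cytosolic ribosome but carry other symbols. Fau, whose product is cut into a ubiquitin-like protein and the small subunit protein eS30, stood at 4066, 4169 and 3295 CPM in epithelium and at 5530, 5752 and 4338 CPM in macrophage-like cells. It was higher in macrophage-like cells by 0.72 in log2 (edgeR quasi-likelihood test, TMM scaling, Benjamini-Hochberg adjusted p = 3.4e-04). TMM scaling is set by the bulk of genes. Scaling by library size only shifted the log2 values of all genes in this comparison by a median of -0.34. Rack1, a signalling scaffold on the small subunit, stood at 2064, 2052 and 1483 CPM in epithelium.

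**Figure D2:**
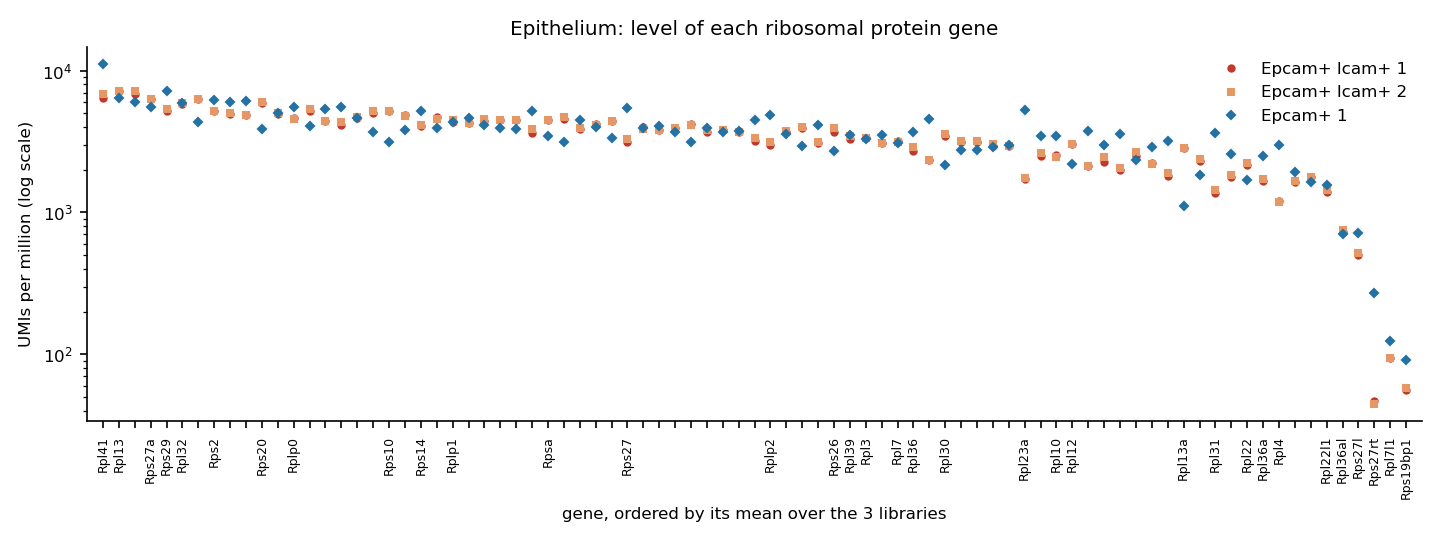
Level of the ribosomal protein genes in epithelium (CPM, log axis) in order of their mean, with 1 point per library. 78 genes lie at 1000 CPM or above, and the 3 genes under 1 CPM are not drawn (symbols mark genes described in the text).

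The mix of paralogues is given as the paralogue's UMIs as a percentage of the UMIs of paralogue and canonical gene together, as a description with no test of the share. Reads of near-identical genes can be assigned to either, or dropped, by the counting. 5 of the 8 paralogues supplied more than 1% of their pair in every class and library.

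Rpl36al gave 30.5%, 30.3% and 22.1% of its pair in epithelium. Its share was highest in macrophage-like cells (41.8%, 40.2% and 28.0%), next in tip-like cells (34.3%, 34.5% and 25%), and lower in airway-like (27.4%, 27.1% and 20.2%) and alveolar type 1-like cells (28.6%, 27.9% and 17.3%). This order of macrophage-like, tip-like and the other 2 classes was the same in each library, while the order of the other 2 was not. At the level of the single gene, Rpl36al stood at 863, 887 and 804 CPM in tip-like cells, at 706, 717 and 593 CPM in alveolar type 1-like cells and at 878, 866 and 745 CPM in macrophage-like cells. The partner Rpl36a was lower in macrophage-like cells (1224, 1289 and 1912 CPM) than in epithelium (1667, 1731 and 2503 CPM). In the last 400 bases of its transcript, 76.9% of the 50-base windows of Rpl36a also occurred in other genes that both tables list. Rpl36al overlaps the gene model Gm49383, which only the Epcam+ table lists and which had 0 UMIs there. The part of this in the lower Rpl36al share of the Epcam+ library was not tested.

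Rps27l, which p53 is known to activate, also gave a larger share in tip-like than in airway-like or alveolar type 1-like cells of each library. Tip-like cells had 16.0%, 15.9% and 13.8%, the airway-like class had 14.1%, 13.1% and 10.9%, and the share was 11.8%, 11.3% and 9.12% in alveolar type 1-like cells. In macrophage-like cells it gave 17.6%, 16.7% and 13.8%, above the tip-like value in the Epcam+ Icam+ libraries and level with it in the Epcam+ library. Its level was 540, 560 and 800 CPM in tip-like cells and 458, 479 and 617 CPM in alveolar type 1-like cells, so it was lower there in each library while Rps27 was higher (2842, 2957 and 4994 CPM in tip-like and 3438, 3756 and 6152 CPM in alveolar type 1-like cells).

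Rpl22l1, the paralogue of an RNA-binding large subunit protein known for its part in lymphocyte development, had the reverse pattern in macrophage-like cells. It gave 39.0%, 39.2% and 47.9% of its pair in epithelium, with 38.3% to 49.0% over the 3 epithelial classes and libraries. In macrophage-like cells it gave 31.9%, 31.3% and 47.4%. Its level was 1386, 1433 and 1562 CPM in epithelium and 831, 838 and 1189 CPM in macrophage-like cells. The Epcam+ Icam+ macrophage-like values lay below all epithelial ones, while that of the Epcam+ library overlapped them as a share.

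Rpl7l1, a large subunit assembly factor, gave 2.85%, 2.89% and 3.84% of its pair in epithelium and at most 4.58% in any of the 5 classes. Rps27rt gave 1.47%, 1.33% and 4.74% in epithelium, and 1.59%, 1.24% and 5.21% in macrophage-like cells. With coding sequences identical, and 98.7% of the 50-base windows of Rps27 and 91.1% of those of Rps27rt shared with a gene of both tables, UMIs of this pair cannot be told apart with certainty.

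The 3 genes under 1 CPM were near absent from epithelium. Rpl10l, a testis paralogue, had 0 UMIs in all 15 sums of class and library, which in epithelium allows up to 0.0642, 0.0703 and 0.0422 CPM (3 counts of the total). Rpl3l, known from striated muscle, had 1, 0 and 0 UMIs in epithelium and 2, 2 and 2 in macrophage-like cells. Rpl39l had 5, 3 and 4 UMIs in epithelium. It had 50, 11 and 0 UMIs in macrophage-like cells, and the 0 of the Epcam+ library allows up to 2.93 CPM. The 50 UMIs came from 10 of 391 cells and the 11 from 5 of 376, and they gave 0.189% and 0.0419% of the pair with Rpl39.

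**Figure D3:**
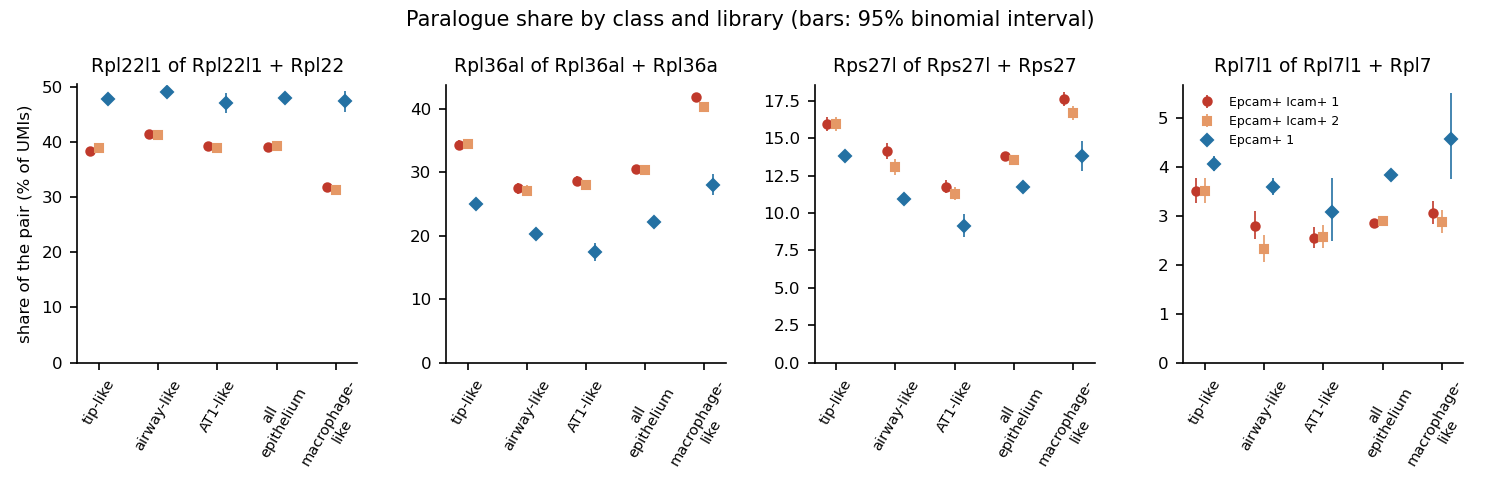
Paralogue UMIs as a percentage of the UMIs of paralogue and canonical gene (vertical axis) for 4 pairs, by class, with 1 point per library and bars for the 95% binomial interval. Rpl36al is highest in macrophage-like cells of each library, and the Epcam+ library lies below the others for Rpl36al and Rps27l and above them for Rpl22l1.

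Alveolar type 1-like cells were compared with tip-like cells of the same library. Most ribosomal protein genes were higher in alveolar type 1-like cells by a small amount. In edgeR's quasi-likelihood test with library as a block, 48 of the 83 genes tested were higher and 3 lower at an adjusted p under 0.05. Over all 11652 genes tested 37.7% were called, 16.6% as higher and 21.1% as lower. The median log2 fold change was 0.16 over the 83, 0.00 over all genes and -0.07 over all genes at a mean of 20 CPM or more. The within-library medians of the genes were 0.16, 0.17 and 0.16. By CPM alone, 72 of 83 were higher in every library (26.2% of all genes at this level) and 5 lower (41.8%). For 19 genes no alveolar type 1-like value overlapped a tip-like value on the high side (7.99% of all genes) and for 1 on the low side (15.8%). The calls were 68 higher and 5 lower when scaled by library size only (16% and 22.2% of all genes), and 73 higher without the Epcam+ library. Without a filter on low counts 5 were higher, and a fit without the library block called 0 in either direction.

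Among the genes that rose, Rps27rt stood at 38.7, 39.1 and 255 CPM in tip-like cells. In alveolar type 1-like cells it stood at 55.3, 52.7 and 339 CPM, higher by 0.44 ± 0.090 in log2 (SE, adjusted p = 9.5e-04). Its UMIs cannot be told apart with certainty from those of Rps27. Rps26, at the exit of the messenger RNA channel, rose from 3383, 3446 and 2620 CPM to 4182, 4591 and 3354 CPM (0.36, adjusted p = 9.8e-05). Rps27 rose by 0.30 (adjusted p = 3.7e-04). In each of these the alveolar type 1-like value was the higher of the pair in all 3 libraries, while the Epcam+ library set its own level for both classes.

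The 3 genes that fell were 2 paralogues and Rps19bp1. Rpl36al fell by 0.34 in log2 (SE 0.070, adjusted p = 9.8e-04) and Rps27l fell by 0.28 (adjusted p = 0.0062), with the values given above. Rps19bp1 stood at 64.9, 71.9 and 96.4 CPM in tip-like cells and at 46.1, 53.6 and 73.9 CPM in alveolar type 1-like cells, and fell by 0.43 (adjusted p = 0.0015), a call that was lost without either of the Epcam+ Icam+ libraries. Cell cycle genes summed to 2923, 2704 and 4938 CPM in the alveolar type 1-like and to 11854, 11757 and 10138 CPM in the tip-like cells, and their part in these differences was not tested.

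Airway-like and tip-like cells differed little in the 83 genes. 2 were higher and 12 lower in airway-like cells, where 23.1% of all 12032 genes tested were called (11.8% higher, 11.3% lower). The median log2 fold change was -0.05 over the 83 genes, 0.00 over all genes and -0.08 over all genes at a mean of 20 CPM or more. The median of the 83 turned to 0.02, with 12 higher and 6 lower, when scaled by library size only (23.4% of all genes called). By CPM, 34 genes were higher and 24 lower in every library (31.4% and 32.6% of all genes), and for 5 genes on each side no values overlapped (7.58% and 9.06% of all genes).

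Rps2, of the small subunit's entry channel, fell by 0.42 from tip-like to airway-like cells (adjusted p = 0.0027), from 5891, 5842 and 6733 CPM to 4511, 4428 and 5566 CPM. Rpl36al fell by 0.44 (SE 0.063, adjusted p = 0.0062) and stood at 653, 657 and 666 CPM in airway-like cells. Rpl7l1 fell by 0.41 (adjusted p = 0.025), from 109, 106 and 131 CPM to 90.3, 72.4 and 111 CPM. Rpsa, the small subunit protein that is also known as the laminin receptor, fell by 0.26 (adjusted p = 0.020). These 4 were also lower when scaled by library size only. Rpl39 and Rps14 were each higher by 0.15 (adjusted p = 0.045 and 0.042). Leaving out the Epcam+ library gave 6 higher and 46 lower, leaving out Epcam+ Icam+ library 1 or 2 left 1 or 0 genes called, and a fit without the library block called 0.

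Macrophage-like cells were compared with the epithelium of the same libraries. How the ribosomal protein genes as a group placed here depended on the scaling. As a share of all UMIs they were lower: by CPM, 72 of 83 genes were lower in macrophage-like cells of every library and 6 higher (52.2% and 33.7% of all genes), with within-library medians of -0.26, -0.24 and -0.24 in log2. For 30 genes the macrophage-like values lay below all epithelial values (32.2% of all genes) and for 0 above them (23.2%). Scaled by library size only, 70 of the 84 genes tested were lower and 5 higher, with a median of -0.24, while the median over all genes was -0.47, with 24.8% of them called higher and 51% lower. With TMM scaling, which is set by the bulk of genes and moved the median of all genes by 0.34, 2 were lower and 12 higher, the median was 0.04 against -0.14 over all genes, and 69.2% of all 14198 genes tested were called (31.4% higher, 37.9% lower). The ribosomal protein genes thus stood above the median of all genes under both scalings, but with TMM below the median of 0.10 over all genes at a mean of 20 CPM or more.

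5 genes were called higher in macrophage-like cells under both scalings, among them Rpl39l, with the few UMIs given above, and Rps29, Rpl10 and Rpl36al, which were higher by CPM in every library. Rps29 stood at 6895, 7197 and 9169 CPM in macrophage-like cells and was higher by 0.68 ± 0.12 (SE, adjusted p = 4.9e-04), or 0.40 by library size only. Rpl10, a large subunit protein near the peptidyl transferase centre, stood at 2952, 2956 and 3662 CPM against 2528, 2472 and 3475 CPM in epithelium (0.47, adjusted p = 0.0076, or 0.19). Its last 400 transcript bases all occur in Rpl10-ps3 too, so its counts are uncertain. Rpl36al was higher by 0.47 ± 0.13 (SE, adjusted p = 0.0093, or 0.18).

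2 genes were lower under both scalings. Rpl22l1 fell by 0.35 (SE 0.11, adjusted p = 0.0150), or by 0.64 by library size only, from 1386, 1433 and 1562 CPM to 831, 838 and 1189 CPM. Rps26 fell by 0.30 (adjusted p = 0.0289), or by 0.58, from 3706, 3915 and 2727 CPM in epithelium to 2368, 2485 and 2014 CPM in macrophage-like cells. Leaving out the Epcam+ library, whose macrophage-like sum holds 42 cells, gave 57 genes higher and 10 lower. Leaving out Epcam+ Icam+ library 1 left 0 called, and leaving out library 2 left 1 higher. With the mixed barcodes kept, 5 were higher and 1 lower, and Rpl36al and Rpl22l1 were no longer called.

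**Figure D4:**
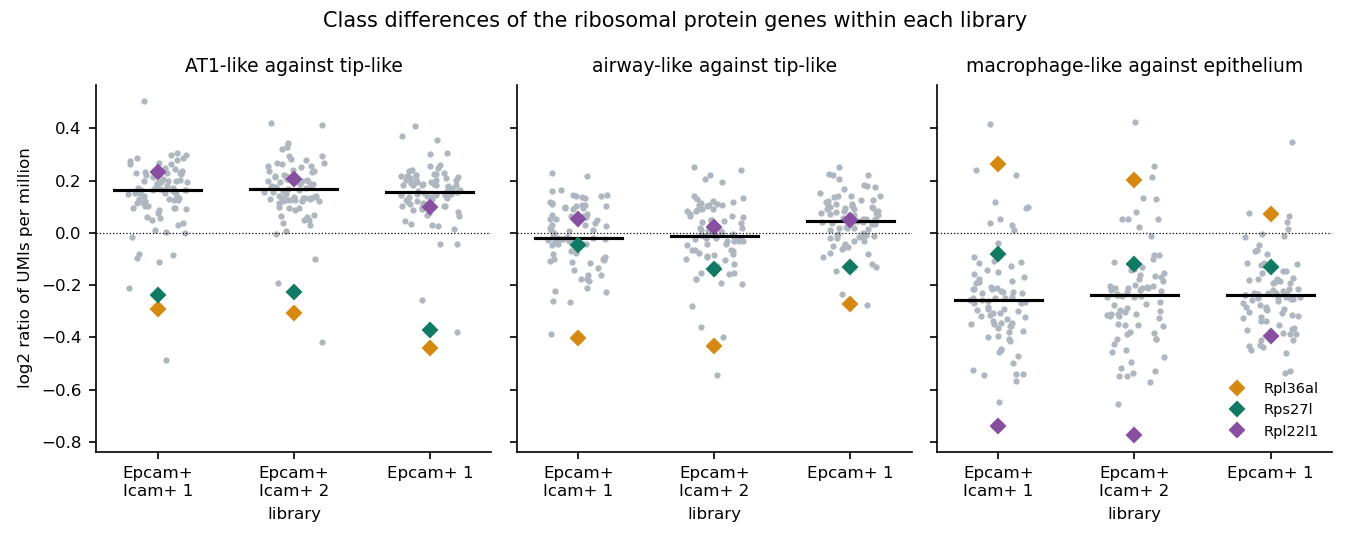
Log2 difference in CPM within each library for the ribosomal protein genes at 20 CPM or more (grey points), for alveolar type 1-like against tip-like, airway-like against tip-like and macrophage-like against epithelial cells, with the median as a bar and Rpl36al, Rps27l and Rpl22l1 as diamonds. The medians lie near 0.16, between -0.02 and 0.05, and near -0.25.

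The sorts were compared within classes of the same name. This does not hold the mix of cells, the library preparation or the software constant. Tip-like cells, for example, lay mostly in clusters 0 and 2 in the Epcam+ library and in clusters 0 and 9 in the Epcam+ Icam+ libraries. Individual ribosomal protein genes differed by large factors in both directions, while their sum moved little. In epithelium 22 of the 83 genes tested were higher and 48 lower in the Epcam+ Icam+ libraries, with 79.3% of all 14730 genes called (39.8% higher, 39.5% lower). The median log2 fold change was -0.13 over the 83 genes, 0.02 over all and -0.14 over all genes at a mean of 20 CPM or more, so the 83 lay close to genes of at least that level. By library size only 33 were higher and 39 lower with a median of -0.015 (43.8% and 34.7% of all genes). In tip-like cells 24 were higher and 50 lower (73.8% of all genes called, 37.2% higher and 36.6% lower). Airway-like cells gave 15 and 58 (67.4% called, 33.7% and 33.8%), and macrophage-like cells 32 and 29 of 84 (35.6% called, 20.2% and 15.4%). In tip-like cells the median of the members was -0.16, against -0.11 over all genes at a mean of 20 CPM or more. The same medians were -0.29 against -0.11 in airway-like cells and 0.07 against 0.02 in macrophage-like cells. These comparisons share their libraries, so their values are given side by side and no likeness between them was tested.

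The gene most different in epithelium was Rps27rt, whose UMIs cannot be told apart with certainty from those of Rps27. It stood at 46.4 and 44.5 CPM after the double sort and 270 CPM in Epcam+ cells. It was called in both, with a log2 difference of -2.68 in epithelium and of -2.68 in macrophage-like cells, where it stood at 35.6 and 29.6 CPM against 227 CPM. With 1 Epcam+ library, whose own spread is unknown, no p-value of a single gene is given for the sorts. Rpl23a, at the exit of the peptide tunnel, stood at 1710 and 1740 CPM against 5292 CPM in epithelium (-1.73) and at 1176 and 1235 CPM against 3880 CPM in macrophage-like cells (-1.57). Rpl31, also near that exit, stood at 1380 and 1442 CPM against 3642 CPM in epithelium (-1.48) and differed by -1.43 in macrophage-like cells. Rpl4, a core large subunit protein, stood at 1206 and 1184 CPM against 2995 CPM (-1.44), and differed by -1.25 in macrophage-like cells.

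On the other side, Rpl13a, a large subunit protein known as a translational silencer in inflamed monocytes, stood at 2856 and 2857 CPM in Epcam+ Icam+ epithelium and at 1118 CPM in Epcam+ epithelium (1.24 in log2). In macrophage-like cells it stood at 2336 and 2343 CPM against 1012 CPM (1.32). Rps10 stood at 5181 and 5207 CPM against 3122 CPM in epithelium (0.62), Rpl30 at 3453 and 3550 CPM against 2145 CPM (0.59) and Rps20 at 5924 and 5998 CPM against 3886 CPM (0.50). In macrophage-like cells Rps10 differed by 0.91, Rpl30 by 0.84 and Rpl12, a protein of the stalk's base, by 0.71. The same difference in the tip-like and the airway-like class was 1.28 and 1.05 for Rpl13a, -2.80 and -2.88 for Rps27rt and -1.62 and -1.94 for Rpl23a. In all of these the Epcam+ Icam+ libraries lay together and apart from the single Epcam+ library, and the sign held by library size only.

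The gene tables were also compared at these genes. 16 of the 86 genes matched or overlapped, in GENCODE vM21, a gene that only 1 of the tables lists. Their median log2 difference between the sorts in epithelium was 0.02, against -0.18 for the 67 tested of the other 70. Of the 27 genes with a difference of at least 0.5 in log2 size, 2 were among these 16, Rpl13a and Rpl7l1. Exons of Rpl13a (chr7:45125558-45128761, minus strand) overlap the gene model Gm45713, which only the Epcam+ table lists and which had 0 UMIs there. Rpl31 (chr1:39367842-39371911, plus strand) and Rpl4 (chr9:64173375-64178666, plus strand) shared no 50-base window of their last 400 transcript bases with another gene of vM21. Rpl23a (chr11:78180932-78183584, minus strand) shared 86.3% of them, with genes that neither table lists. 8 of the 86 genes shared at least 50% of these windows with genes of both tables, and 45 with any other gene. The part of the tables and the software in the differences between sorts was not tested beyond these counts.

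**Figure D5:**
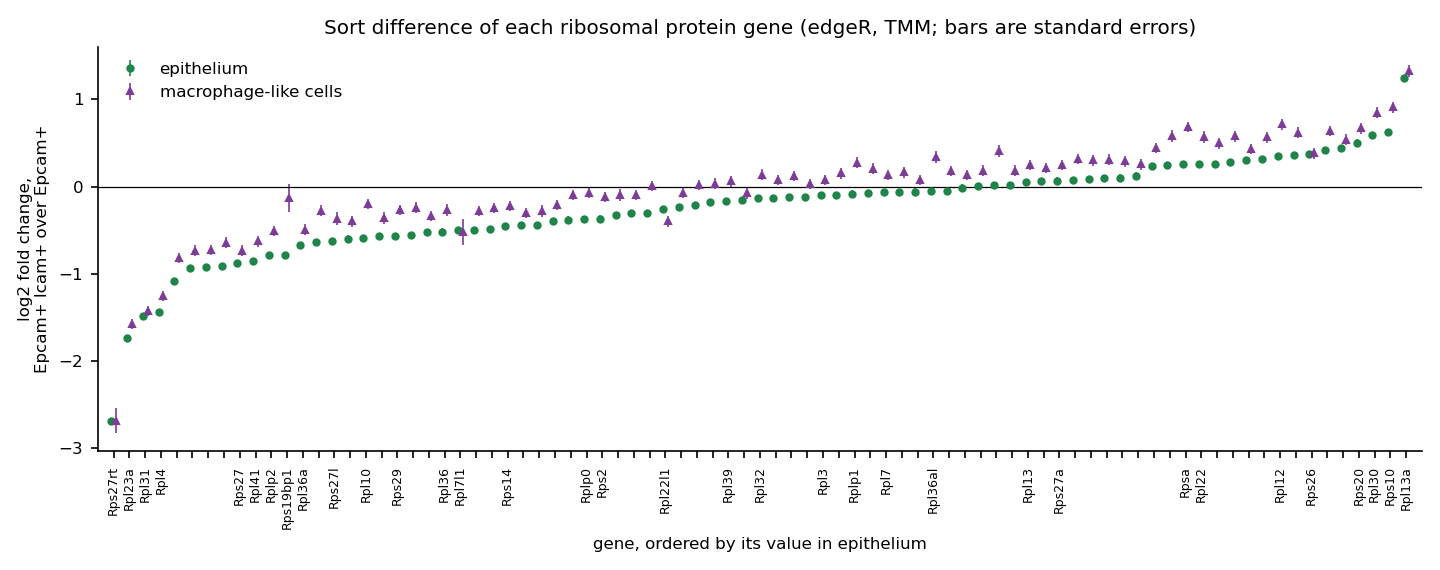
Log2 difference between Epcam+ Icam+ and Epcam+ libraries for the 83 ribosomal protein genes tested in epithelium, in epithelium (circles) and in macrophage-like cells (triangles; edgeR with TMM scaling, bars are standard errors). Of the genes drawn, Rps27rt, Rpl23a, Rpl31 and Rpl4 lie lowest and Rpl13a highest in both, and symbols mark genes described in the text.

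Whether the difference between the sorts was itself different in epithelium and macrophage-like cells was tested as an interaction. With TMM scaling 76 of 84 genes were lower and 0 higher, where 12.2% of all 14755 genes tested were called (2.09% higher, 10.1% lower). The median was -0.30 over the 84 genes and -0.34 over all genes, so genes in general lay to that side under this scaling. By library size only 4 were higher and 4 lower (4.17% and 2.72% of all genes), with medians of 0.01 over the 84 and -0.03 over all genes. Of the genes called with TMM at a mean of at least 20 CPM, Rps19bp1 had the most negative value (-0.74, or -0.43 by library size only). It was followed by Rpsa (-0.52, or -0.20) and Rpl10 (-0.48, or -0.17). Rpsa stood at 4486 and 4472 CPM against 3469 CPM in epithelium and at 4111 and 4136 CPM against 2777 CPM in macrophage-like cells. The macrophage-like cells of the Epcam+ library numbered 42.

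Other genes of the pathway were counted from lists of ribosome assembly and translation genes. The 16 ribosome biogenesis genes, which process ribosomal RNA in the nucleolus, were mostly lower in alveolar type 1-like cells. They summed to 2281, 2294 and 3207 CPM in tip-like cells and to 1253, 1250 and 2123 CPM in alveolar type 1-like cells, and 15 of 16 were lower and 0 higher (median -0.80, against 21.1% of all genes lower and 16.6% higher). In airway-like against tip-like cells 11 of 16 were lower and 0 higher (median -0.51, against 11.3% and 11.8% of all genes). Of 8 genes of the RNA polymerase I machinery, which transcribes ribosomal RNA, 5 were lower and 0 higher in alveolar type 1-like cells (median -0.36). Of 17 translation factor and other genes whose messenger RNAs start with an oligopyrimidine tract, 7 were higher and 3 lower there (median 0.13).

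Mitochondrial ribosomal protein genes, which serve the separate ribosome of that organelle, were also mostly lower or not called in the epithelial classes. Of 78, 34 were lower and 1 higher in alveolar type 1-like against tip-like cells (median -0.20, against 21.1% and 16.6% of all genes). In airway-like against tip-like cells 23 were lower and 1 higher (median -0.28, against 11.3% and 11.8%). Between macrophage-like cells and epithelium 14 were higher and 16 lower (median 0.01), smaller shares than the 31.4% and 37.9% of all genes. Between the sorts in epithelium 74 of the 78 were lower and 2 higher in the Epcam+ Icam+ libraries (median -0.52, against 39.5% and 39.8% of all genes), all 16 ribosome biogenesis genes were lower (median -0.93), and of the 17 translation genes 13 were lower and 3 higher (median -0.26). Between the sorts in epithelium, Rack1 and Fau were higher in the Epcam+ Icam+ libraries by 0.36 and 0.21 in log2.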

How the data were processed

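The deposited matrices hold whole UMI counts of each gene in each barcode. The submitters' processing notes name Cell Ranger 2.1.1 and mm10, while the headers name software 5.0.1 (Epcam+ Icam+) and 3.0.2 (Epcam+). The annotation behind the 2 gene tables is not given in the sources used here. The members and the gene lists were chosen with earlier results of these data known.

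Barcodes were kept from 1000 UMIs and 500 genes up, if no more than 10% of UMIs were mitochondrial (3400, 3167 and 2990). Scrublet's automatic threshold marked 0 doublets, so the 129, 115 and 88 barcodes with the highest scores were left out, at 0.8% per 1000 barcodes. Cells were clustered in scanpy 1.11.5 (2000 variable genes without the members, 30 components, 15 neighbours, Leiden resolution 1, seed 1, separately for all cells and for epithelium), and 94 cell cycle genes were left out of the epithelial clustering. Clusters were named from marker lists, and the tip and alveolar type 2 lists were read together after the data were seen. Macrophage-cluster cells with over 0.05% epithelial marker UMIs and epithelial cells with over 0.1% macrophage marker UMIs were left out as mixed. Free RNA was not removed. Library depth was 74170599, 67843828 and 84460347 UMIs.

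Counts were summed per library and class and tested in edgeR 4.0.16 (quasi-likelihood F test, TMM scaling, filterByExpr) over all genes that passed the filter, with Benjamini-Hochberg adjustment at 0.05. Of the 86 members, 83 passed it, and Rpl39l also passed where macrophage-like cells entered; Rpl3l and Rpl10l did not. Comparisons of classes had library as a block. Comparisons of sorts set 2 libraries against 1, with spread borrowed across genes. The script was tested on simulated data with TMM scaling. For the interaction between class and sort it recovered 5 of 100 changes of 0.5 in log2 and 37 of 100 changes of 1. It also called 33 unchanged genes there. The values of the interaction are therefore read against the median of all genes and beside library-size scaling. Named genes were the paralogue pairs, the 6 most abundant members, the stalk genes, Fau and Rack1, and per comparison the 4 members with the largest change in each direction (3 for the interaction) among those called, at a mean of at least 20 CPM and in 1 direction in every library. Some genes this rule selects are not reported here. Alternatives were DESeq2 1.42.0, RLE scaling, scaling without the members, no filter on low counts, a stricter cell filter (3000 UMIs, 5% mitochondrial), no doublet removal (levels and shares only), Leiden resolution 2, no block, and each library left out. Coding sequences were aligned with Biopython 1.88.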

Additional observations from a re-analysis of the deposited data

Results flagged for a closer look

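In the test of the interaction of class and sort, 76 of 84 ribosomal protein genes were called lower in the direction of epithelium minus macrophage-like cells (edgeR quasi-likelihood test, TMM scaling, 1 Epcam+ library). The median over all genes in that test was -0.34 and that over the 84 was -0.30, and by library size only 4 genes were lower and 4 higher, so the count of 76 depends on a scaling under which genes in general lay to that side, and does not show a difference of the ribosomal protein genes as a group. With TMM the interaction was called for Rps19bp1 (-0.74 in log2), Rpsa (-0.52) and Rpl10 (-0.48). By library size only the values were -0.20 for Rpsa, -0.17 for Rpl10 and -0.43 for Rps19bp1. The interaction rests on 1 Epcam+ library, whose own spread is unknown, so no p-value of a single gene is given for it.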

How the results depend on the processing

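Counts and medians of the ribosomal protein genes are given as higher and lower, and the cause of each change was not tested. Library-size scaling and keeping mixed barcodes were chosen after seeing the data. By library size only, 23 genes were higher between sorts in airway-like cells, the interaction gave 4 and 4 (median 0.0097), macrophage-like against epithelial cells 5 and 70 (median -0.24), airway-like against tip-like cells 12 and 6 (median 0.017), alveolar type 1-like against tip-like cells 5 lower, and the sort in macrophage-like cells a median of -0.046. With mixed barcodes kept that median was -0.051, the interaction gave 1 higher, macrophage-like against epithelial cells 5 and 1, and the macrophage-like share of UMIs was 26.7% on average. DESeq2 gave 9 higher between sorts in airway-like cells, 32 lower in the interaction, 7 lower in macrophage-like cells, and 0 higher and 5 lower in airway-like against tip-like cells. RLE scaling gave 1 and 31 in the interaction, 10 lower in macrophage-like cells and 0 higher in airway-like against tip-like cells. Scaling without the members gave 28 lower in the interaction and 7 lower in macrophage-like cells. Without a filter on low counts, 9 were higher between sorts in airway-like cells, macrophage-like against epithelial cells gave 5 and 4 (median -0.041), airway-like against tip-like cells 0 and 20, and alveolar type 1-like cells 5 higher. The stricter cell filter gave 9 higher between sorts in airway-like cells and 0 and 5 in airway-like against tip-like cells, and left no alveolar type 1-like class to compare. Leiden resolution 2 gave 1 and 24 in airway-like against tip-like cells, 16 lower in alveolar type 1-like cells and an Rpl7l1 share of 2.38% there.

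No paired analysis was possible because only the Epcam+ Icam+ libraries carry replicate numbers, so the sorts could not be paired; classes were compared within each library. Removing that library block gave 2 and 0 in macrophage-like cells, 0 and 0 in airway-like and 0 and 0 in alveolar type 1-like cells. Leaving out 1 library at a time gave 0 to 57 higher and 0 to 10 lower in macrophage-like cells (median -0.0024 without Epcam+ Icam+ library 2 to 0.14 without the Epcam+ library), 0 to 6 higher and 0 to 46 lower in airway-like cells, and 49 to 73 higher and 2 to 4 lower in alveolar type 1-like cells. The comparisons of sorts and the interaction then have no residual degrees of freedom and give medians only. Of the results for single named genes, 515 kept direction under an alternative and, where that fit gave a test, also the call. Another 56 kept direction but lost the call. The 515 include fits without residual degrees of freedom, which could make no call. Most of these genes had been chosen because the main fit called them. The 42 macrophage-like and 48 alveolar type 1-like cells of the Epcam+ library limit the precision of every value that rests on them.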
